A study of Mus musculus with 12 samples.

Results

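The haemoglobin and erythroid transcripts of mouse frontal cortex comprised 6 gene symbols: Hba-a1 and Hba-a2 for the alpha chain, Beta-s, Hbb-b1 and Hbb-b2 for the beta chain, and Alas2, an enzyme of haem synthesis. They were found by symbol and filled 5 gene models in each of 3 deposited tables, out of 30995, 31041 and 31042 models. All 5 were tested by the authors in every table, among 18417, 18430 and 18429 tested models, and all 5 had a mean level of at least 1 FPKM. FPKM counts sequenced fragments, scaled to the length of the transcript and the size of the library. The genes were chosen by their FPKM and calls in these same tables, so their values and calls below describe the data and are no independent evidence of a direction.

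Polyadenylated RNA was sequenced from 12 male F1 hybrids of C57Bl/6 and 129/SvlmJ, aged 14 weeks, with 4 animals in each of 3 groups. The rescue animals (genotype label GluN1Cre) are described as a Cre rescue of the Grin1 knockdown. The knockdown animals (label GluN1) had lowered Grin1, the gene of the obligatory NMDA receptor subunit, and the wild-type animals carried the label WT. All 3 groups took tamoxifen, which activates inducible Cre: 6 mg by gavage plus about 14 mg in food over 2 weeks from the age of 10 weeks. The labels do not give the promoter that drives Cre or how the knockdown allele was made, and since the rescue group alone has Cre in its genotype label, Cre itself and higher Grin1 cannot be told apart. Grin1 was 78.0 and 86.7 FPKM in the rescue, 56.7 and 65.7 FPKM in the knockdown and 138 FPKM in the wild type, over the tables that hold each group. Cortical neuron transcripts were abundant, with Slc17a7, a vesicular glutamate transporter, at 611 to 617 FPKM in the rescue, 598 to 600 FPKM in the knockdown and 626 to 628 FPKM in the wild type. The list of cortical neuron genes, which holds Grin1, summed to 2954 to 2982 FPKM in the rescue, 2898 to 2925 FPKM in the knockdown and 3201 to 3203 FPKM in the wild type. Of its 13 models 2 were called higher and 1 lower in knockdown against wild type, 1 higher in rescue against knockdown and 1 lower in rescue against wild type. The 1 lower call in each comparison against the wild type was Grin1 itself, as was the 1 higher call in rescue against knockdown. In knockdown against wild type 1.66% of all tested models were called higher and 0.858% lower. The share called higher in rescue against knockdown was 0.13%, and the share called lower in rescue against wild type was 0.478%. The tables hold 1 FPKM per group, so no value carries a spread between animals, and depth is unknown.

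Haemoglobin carries oxygen in red blood cells as a tetramer of alpha and beta chains, each holding a haem group. Mammalian red cells lose their nucleus as they mature, but young red cells still hold globin mRNA. Haem synthesis starts with an aminolevulinate synthase. Alas2, on the X chromosome, is the form of the erythroid lineage, while Alas1 serves other tissues. In brain, globin transcripts can come from blood in the vessels and have also been described in neurons and glia of rodents.

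The alpha model 1 spans 32283672 to 32284493 on chromosome 11 of GRCm38, over the RefSeq gene Hba-a1. The alpha model 2 lies in a region from 32286964 to 32303772 in 2 of the tables, ending at 32303763 in rescue against knockdown. RefSeq places Hba-a2 in it from 32296492 to 32297310, between the theta-globin genes Hbq1b and Hbq1a. Both models carry the same pair of symbols, Hba-a1 and Hba-a2, in the tables. Beta-s covers 103826523 to 103827928 on chromosome 7, the RefSeq gene Hbb-bs, for which Beta-s is a synonym. The model named Hbb-b1,Hbb-b2 covers 103812524 to 103813923 on chromosome 7, where RefSeq has Hbb-bt. Hbb-b1 and Hbb-b2 are beta genes of another haplotype found in some inbred strains, and the name of the model does not say which gene of the hybrid mice its reads came from. Alas2 lies from 150547417 to 150570622 on the X chromosome in RefSeq. Its models in the tables span 72600 to 139674 bases and overlap Apex2 and Pfkfb1 as well, so which reads make up its FPKM is uncertain. The 4 globin genes have 3 exons each in GENCODE M21, where they are listed as protein-coding genes ENSMUSG00000069919 (Hba-a1), ENSMUSG00000069917 (Hba-a2), ENSMUSG00000052305 (Hbb-bs) and ENSMUSG00000073940 (Hbb-bt).

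The coding sequences bear on how far reads can be assigned to one copy, so the stretch around the single coding difference of each pair is shown. Hba-a1 and Hba-a2 each have 429 coding bases and differ at 1 of them (C381T, Hba-a1 base first, counted from the A of the start codon). Hbb-bs and Hbb-bt each have 444 coding bases and differ at 1 (C417T, Hbb-bs base first). An alpha and a beta sequence match at 55.2% to 55.4% of aligned positions. The capital marks the differing base in GENCODE M21 transcripts on GRCm38, coding bases 352 to 411 for the alpha pair and 385 to 444 for the beta pair.
Hba-a1: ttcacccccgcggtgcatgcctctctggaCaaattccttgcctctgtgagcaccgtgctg
Hba-a2: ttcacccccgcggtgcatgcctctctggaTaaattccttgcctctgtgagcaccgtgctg
Hbb-bs: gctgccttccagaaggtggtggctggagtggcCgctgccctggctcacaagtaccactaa
Hbb-bt: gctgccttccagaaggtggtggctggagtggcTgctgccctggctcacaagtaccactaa
The longest run without a difference is 380 coding bases in the alpha pair and 416 in the beta pair. Reads from within these runs fit both copies, so the split of a chain's reads between its models is uncertain, and the sum per chain is given beside each model.

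The promoters of the members are shown as a description of the genes, and whether they bear on the order of groups was not tested. Each line gives the 250 bases before the RefSeq start on GRCm38.p6, read 5′ to 3′ on the gene's strand. Capitals mark GATAA, the core bound by GATA factors, CACCC, a box bound by erythroid Krüppel-like factors, CCAAT, and TATAA of the TATA box, on either strand and with overlapping matches counted. The regions are chr11:32283422-32283671 (plus strand) for Hba-a1, chr7:103827929-103828178 (minus) for Hbb-bs, chr7:103813924-103814173 (minus) for Hbb-bt and chrX:150547167-150547416 (plus) for Alas2.
Hba-a1: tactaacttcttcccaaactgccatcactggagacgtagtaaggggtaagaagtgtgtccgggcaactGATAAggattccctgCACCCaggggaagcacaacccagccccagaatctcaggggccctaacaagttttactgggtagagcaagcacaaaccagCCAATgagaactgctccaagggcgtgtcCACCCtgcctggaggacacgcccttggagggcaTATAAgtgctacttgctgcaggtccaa
Hbb-bs: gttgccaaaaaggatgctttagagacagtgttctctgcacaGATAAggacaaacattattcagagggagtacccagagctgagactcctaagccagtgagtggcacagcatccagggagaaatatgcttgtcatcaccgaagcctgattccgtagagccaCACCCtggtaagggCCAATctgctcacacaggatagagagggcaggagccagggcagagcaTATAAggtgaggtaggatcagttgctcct
Hbb-bt: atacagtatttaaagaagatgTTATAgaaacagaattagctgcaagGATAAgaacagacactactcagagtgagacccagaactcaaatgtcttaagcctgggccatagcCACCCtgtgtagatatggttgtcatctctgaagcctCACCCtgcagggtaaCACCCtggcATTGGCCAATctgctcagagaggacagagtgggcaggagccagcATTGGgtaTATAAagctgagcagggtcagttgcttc
Alas2: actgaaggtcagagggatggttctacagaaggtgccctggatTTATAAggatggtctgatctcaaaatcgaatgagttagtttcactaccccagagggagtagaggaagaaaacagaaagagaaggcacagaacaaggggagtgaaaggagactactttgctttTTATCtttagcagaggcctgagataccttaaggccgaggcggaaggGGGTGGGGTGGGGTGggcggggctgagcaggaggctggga
The Hba-a2 promoter matched that of Hba-a1 at all 247 bases that overlap after a shift of 3 bases. In Hba-a1 the CCAAT begins 88 bases before the start, the nearer CACCC 60 and the TATAA 27. In Hbb-bs the CACCC begins 90 bases before the start, the CCAAT 76 and the TATAA 29. The alpha, Hbb-bs and Hbb-bt windows hold all 4 motifs, as do 0.968% of 32851 RefSeq promoter windows of this length. The Alas2 window holds all of these letters except CCAAT. Singly, GATAA occurs in 22.6% of the windows, CACCC in 52.0%, CCAAT in 33.8% and TATAA in 22.8%. A match of letters is not a binding site, and nothing about the groups is read from these shares.

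Every one of the 5 models had its highest level in the rescue cortex, a middle level in the knockdown and its lowest level in the wild type. Each group stands in 2 tables, which gave each model's level within 0.00575% to 1.22% of each other, although the tables were made separately. Beta-s, the more abundant beta chain, was 89.4 and 89.9 FPKM in the rescue, 69.2 and 69.3 FPKM in the knockdown, and 62.0 FPKM in the wild type of both tables. The alpha model 1 was 47.0 and 47.4 FPKM in the rescue, 30.1 and 30.2 FPKM in the knockdown, and 23.1 and 23.0 FPKM in the wild type. The order of groups was thus the same in the most abundant models of either chain.

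The alpha model 2 had almost equal levels in knockdown and wild type. It was 21.1 and 21.3 FPKM in the rescue, 10.4 FPKM in the knockdown of both tables, and 10.1 and 10.2 FPKM in the wild type. Its knockdown level was 3.40% above its wild-type level, against 30.6% for the alpha model 1. Since reads from the identical coding runs fit both models, that contrast between them is uncertain, and it was not tested. The model Hbb-b1,Hbb-b2 was 3.1 and 3.12 FPKM in the rescue, 2.94 and 2.95 FPKM in the knockdown, and 2.58 and 2.60 FPKM in the wild type. Alas2 was 2.85 and 2.86 FPKM in the rescue, 2.41 FPKM in the knockdown of both tables, and 1.93 and 1.92 FPKM in the wild type. Beta-s lay above 91.5% of tested models with a mean of at least 1 FPKM in the wild type, while Alas2 lay above 11.6% to 11.9% of them.

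**Figure D1:**
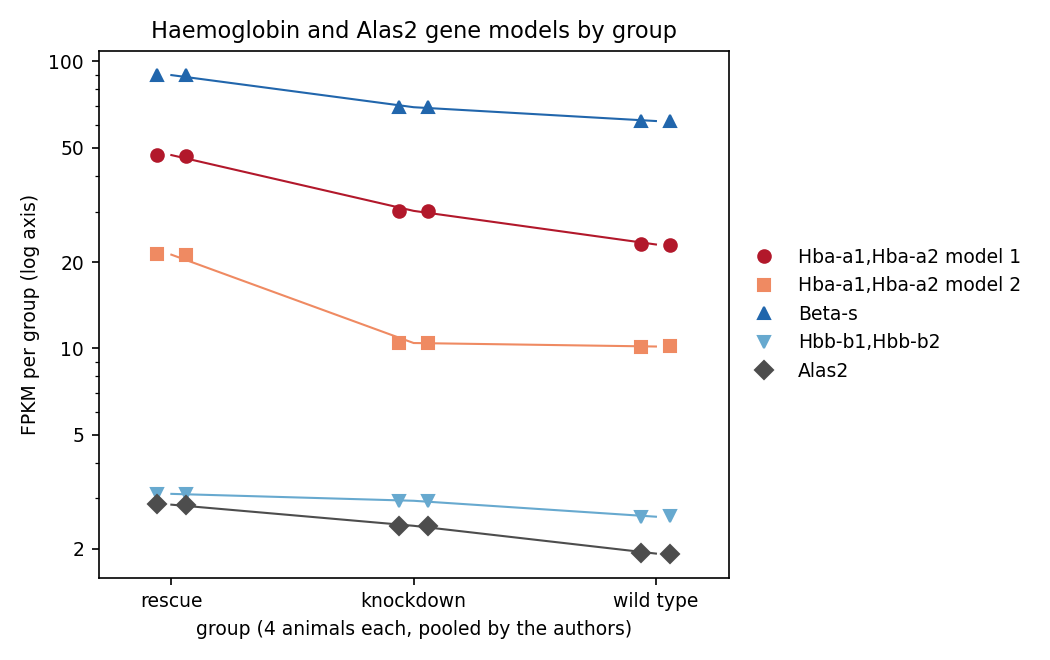
FPKM of each haemoglobin and Alas2 gene model (log axis) in the rescue, knockdown and wild-type groups, with 2 points per group from the 2 tables that hold it and a line through their means. Both points of a group come from the same animals. Every line slopes down to the right: Beta-s has 89.4 to 89.9 FPKM in the rescue and 62.0 FPKM in the wild type, Alas2 has 2.85 to 2.86 FPKM in the rescue and 1.92 to 1.93 FPKM in the wild type, and the points of a group lie close together.

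In the rescue cortex against the wild type, the alpha models, Beta-s and Alas2 stood at the upper edge of all folds. The log2 fold was 1.03 for the alpha model 1, 1.05 for the alpha model 2, 0.53 for Beta-s, 0.25 for Hbb-b1,Hbb-b2 and 0.57 for Alas2. Only 16 and 15 of 13835 tested models with a mean of at least 1 FPKM had a log2 fold as high as the alpha models 1 and 2, each counting itself. For Beta-s that number was 79 and for Alas2 it was 67. The authors' threshold calls a model at p under 0.05 and q under 0.10 by Cuffdiff, their testing program. By it 3 of the 5 models were called higher and 0 lower, namely both alpha models and Beta-s (each q = 0.0098 in the authors' deposited table). Of all tested models 0.364% were called higher and 0.478% lower, and nothing is read from the members' share since this contrast was known when they were chosen. Without the q threshold 4 of the 5 had a p under 0.05, as did 4.32% of all tested models. The fourth was Alas2, with p = 0.0395 and q = 0.9999 in the authors' deposited table. The median log2 fold was 0.57 over the 5 models and -0.01 over all tested models.

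In the rescue cortex against the knockdown, the alpha chain again had the larger differences. The log2 fold was 0.65 for the alpha model 1 and 1.03 for the alpha model 2. It was 0.38 for Beta-s, 0.08 for Hbb-b1,Hbb-b2 and 0.25 for Alas2. The alpha models ranked among 28 and 11 of 13893 tested models with a log2 fold as high, and Beta-s among 83. Both alpha models (each q = 0.0118) and Beta-s (q = 0.0291) were called higher in the authors' deposited table, so 3 of 5 models were called higher and 0 lower. Of all tested models 0.13% were called higher in this comparison, 24 in number and these 3 among them, and 0.559% lower. At a p under 0.05 alone the members' number was also 3, and the share of all tested models was 4.19%. The median log2 fold was 0.38 over the 5 models and -0.01 over all tested models.

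In the knockdown cortex against the wild type, the differences were smaller and 1 of the 5 models was called. The alpha model 1 had a log2 fold of 0.38 and q = 0.0949 in the authors' deposited table, just under the threshold. The log2 fold was 0.05 for the alpha model 2, 0.16 for Beta-s, 0.19 for Hbb-b1,Hbb-b2 and 0.32 for Alas2, none of which was called. As many as 330 of 13920 tested models had a log2 fold as high as the alpha model 1, and 1444 one as high as Beta-s. Of all tested models 1.66% were called higher and 0.858% lower. At a p under 0.05 alone 1 of the 5 passed, as did 7.91% of all tested models. The median log2 fold was 0.19 over the 5 models and -0.00 over all tested models. The 3 comparisons share groups pairwise, so they are not separate evidence.

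**Figure D2:**
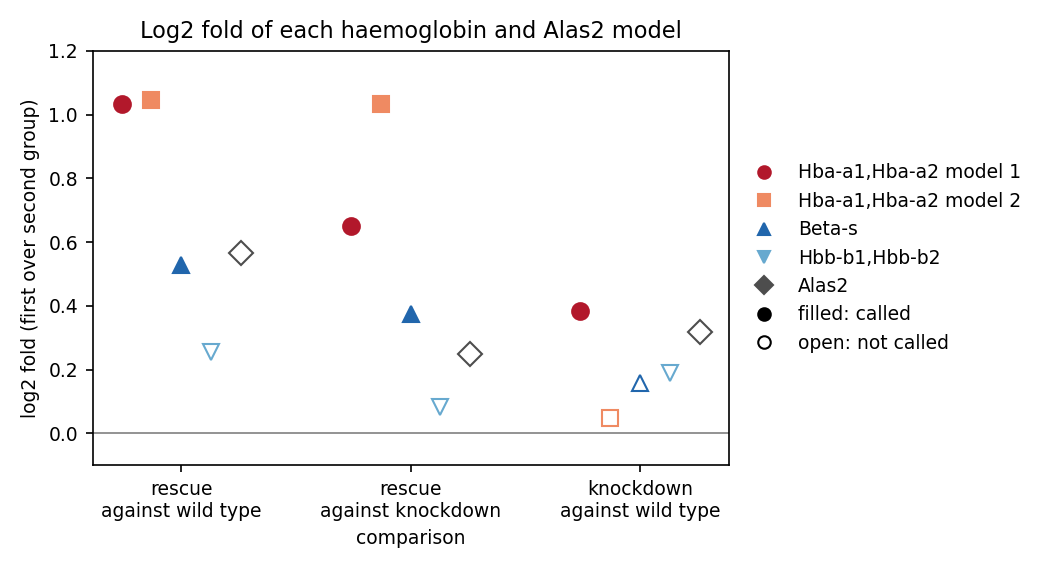
Log2 fold of the 5 haemoglobin and Alas2 models in the 3 comparisons, first-named group over second, with filled symbols for models the authors' threshold calls and open symbols for the others. All 15 points lie above 0, and the alpha models are highest in both comparisons of the rescue group.

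**Figure D3:**
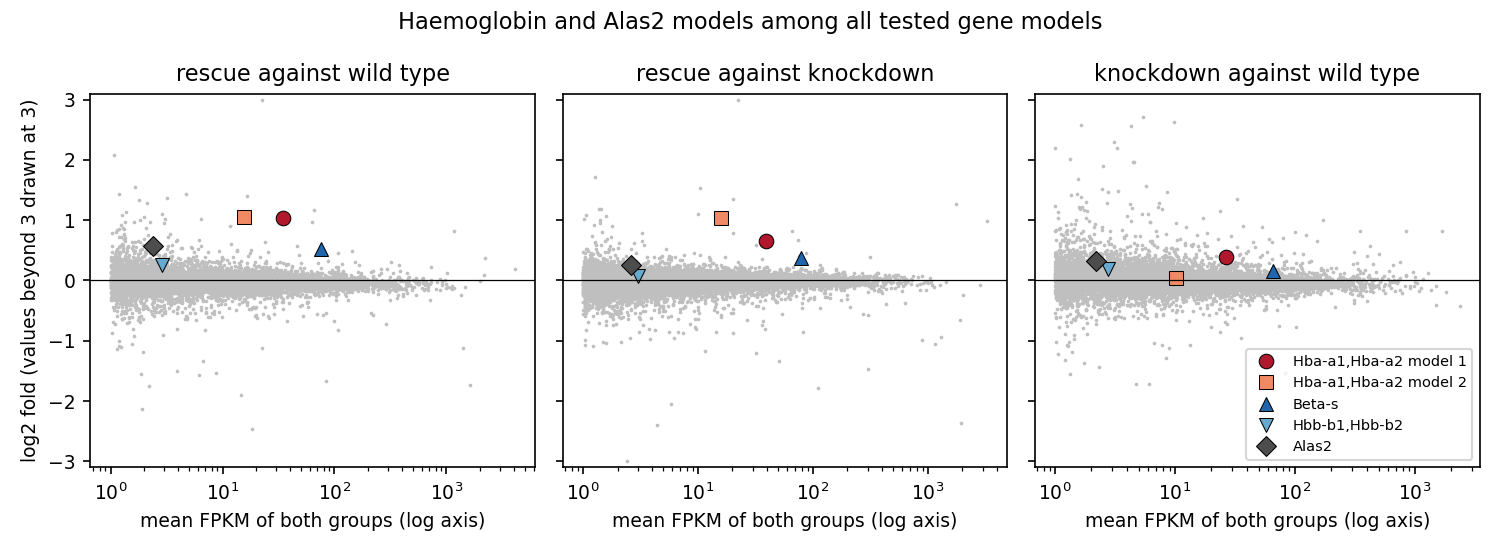
Log2 fold against mean FPKM (log axis) for all tested models with a mean of at least 1 FPKM (grey, values beyond 3 drawn at 3), with the 5 haemoglobin and Alas2 models in colour. The alpha models and Beta-s lie at or above the upper edge of the grey points of like mean FPKM in both comparisons of the rescue group, with some grey points as high or higher. For knockdown against wild type they lie lower, with a log2 fold of 0.16 for Beta-s.

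The number of calls was lower when p was taken from the deposited test statistic, for these models as over all genes. At the median, the test statistic in the tables was 0.497 to 0.498 of the normal value that matches its p. With p taken from that statistic instead, an alternative chosen after seeing the data, 1 of the 5 models was called in rescue against wild type, and 0 in each of the other comparisons, against 3, 3 and 1 by the deposited p (rescue against wild type, rescue against knockdown, knockdown against wild type). The one called was the alpha model 1. Over all genes that setting called 18, 15 and 41 models against 155, 127 and 464, in the same order of comparisons. The statistic's smaller size lowers such counts by construction, so nothing particular to these models is read from them. The call of the alpha model 1 in knockdown against wild type was also lost at q under 0.05.

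The chains did not differ by equal amounts. Summed over its models, the alpha chain was 68.1 and 68.7 FPKM in the rescue, 40.6 FPKM in the knockdown of both tables and 33.2 FPKM in the wild type of both. The beta chain was 92.5 and 93.1 FPKM in the rescue, 72.2 and 72.3 FPKM in the knockdown and 64.6 FPKM in the wild type of both. The rescue sum was 2.05 times the wild-type sum for alpha and 1.43 times for beta. Against the knockdown it was 1.69 times for alpha and 1.29 times for beta. The knockdown sum was 1.22 times the wild-type sum for alpha and 1.12 times for beta.

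The ratio of alpha to beta FPKM was therefore not constant. It was 0.736 and 0.739 in the rescue, 0.562 in the knockdown of both tables, and 0.514 and 0.513 in the wild type. On the log2 scale the ratio was 0.52 higher in the rescue than in the wild type, 0.40 higher than in the knockdown, and 0.13 higher in the knockdown than in the wild type. With the highest model of each chain alone these differences were 0.51, 0.28 and 0.23. No spread between animals is available, so these ratios were not tested. Within the beta chain, Beta-s held 96.6% of the FPKM in the rescue, 95.9% in the knockdown and 96.0% in the wild type. Within the alpha chain, model 1 held 68.9% to 69.0% in the rescue, 74.3% in the knockdown and 69.2% to 69.6% in the wild type. Alas2 amounted to 1.77 FPKM per 100 FPKM of haemoglobin in the rescue, 2.13 to 2.14 in the knockdown and 1.97 to 1.98 in the wild type.

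**Figure D4:**
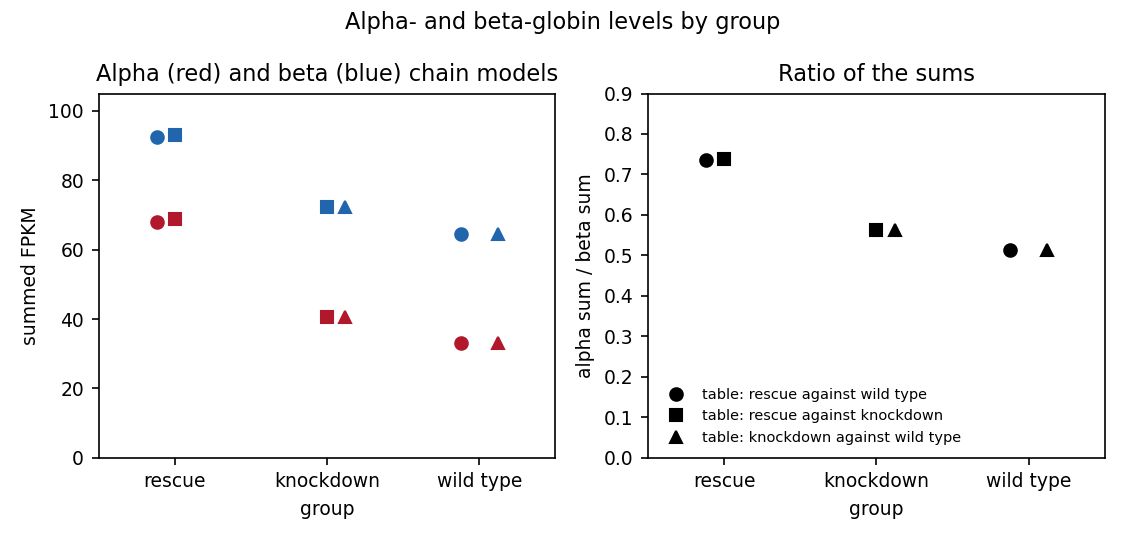
Left, summed FPKM of the alpha (red) and beta (blue) models by group, and right, the ratio of the sums, with 1 symbol shape per table. The alpha sum is 68.1 to 68.7 FPKM in the rescue and 33.2 FPKM in the wild type, and the ratio is 0.736 to 0.739 in the rescue and 0.513 to 0.514 in the wild type.

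Other erythroid genes gave few calls. The list of red cell membrane and erythroid genes held 38 symbols, of which 36 were found, giving 22 or 23 tested models per table. None was called higher in any comparison by Cuffdiff, and at an unadjusted p under 0.05 the numbers higher were 1 in rescue against wild type, 0 in rescue against knockdown and 0 in knockdown against wild type. The one was Isg20, an exonuclease gene, at 0.58 FPKM in the rescue and 0.30 FPKM in the wild type. Of all tested models 1.82%, 1.18% and 4.75% were higher at that p, in the same order of comparisons. Tfrc, the transferrin receptor through which cells take up iron, was lower in both mutant groups. It was 23.8 FPKM in the rescue against 28.9 FPKM in the wild type (q = 0.0453 in the authors' deposited table). It was 24.2 FPKM in the knockdown against 29.0 FPKM in the wild type (q = 0.0576 in the authors' deposited table). Between rescue and knockdown it was 24.1 and 24.8 FPKM and was not called. Median log2 folds of the list were -0.01, 0.02 and -0.02 (rescue against wild type, rescue against knockdown, knockdown against wild type), and 0.841%, 0.689% and 2.52% of all tested models were called in either direction.

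The defining red cell transcripts lay near 0. Slc4a1, the anion exchanger of the red cell membrane, was 0.08 FPKM in the rescue and 0.06 FPKM in both the knockdown and the wild type, and was not tested by the authors. Gata1 and Rhag, an erythroid transcription factor and a membrane protein, lay below 0.005 FPKM or were listed at 0 in every group, and Ahsp, which binds free alpha chains, was not found by symbol. Abundant genes of the list are ones that brain also expresses. Prdx2, a peroxiredoxin, was 154 FPKM in the rescue and 153 FPKM in the wild type. The model of Epb4.9 (dematin) and Fam160b2 was 81.0 FPKM in the rescue and 84.7 FPKM in the wild type, and Tmcc2 64.6 FPKM in the rescue and 67.2 FPKM in the wild type. Summed over the whole list, the level was 825 to 832 FPKM in the rescue, 826 FPKM in the knockdown and 836 to 842 FPKM in the wild type. The members are erythroid by what they encode, and the cells that made them were not identified here. In bulk tissue a different number of cells and a different amount of RNA per cell cannot be told apart.

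The other genes of haem synthesis gave no call. Of 13 tested models 0 were called in each comparison by Cuffdiff, and 0 reached an unadjusted p under 0.05. Fech (ferrochelatase, which inserts the iron) was 18.7 FPKM in the rescue and 18.7 FPKM in the wild type, and Alas1, the general form of the first enzyme, was 20.1 FPKM in both. The mitochondrial carrier Slc25a39 had a log2 fold of 0.05 and Tmem14c, a porphyrin transporter, -0.10 in rescue against wild type. Urod, a decarboxylase of the pathway, was 23.8 FPKM in the rescue and 24.9 FPKM in the wild type, and the model of Alad (the second enzyme) and Pole3 was 26.2 FPKM in the rescue and 27.5 FPKM in the wild type. Over the list the log2 folds ran from -0.10 to 0.05 in that comparison. The highest fold of this list, 0.10 in knockdown against wild type, lay below that of Alas2 there, 0.32. Among genes that clear haem and haemoglobin, 0 of 8 tested models were called in each comparison by Cuffdiff. At an unadjusted p under 0.05 the numbers were 0, 0 and 2 (rescue against wild type, rescue against knockdown, knockdown against wild type). Of all tested models 4.32%, 4.19% and 7.91% passed that p. Both of the 2 were models of Cd163 with means below 1 FPKM, and they went opposite ways, at log2 folds of 0.45 and -0.59. Hmox1, the inducible haem oxygenase, was 2.71 FPKM in the rescue and 2.44 FPKM in the wild type, and Hmox2, the constitutive form, 37.8 FPKM in the rescue and 40.8 FPKM in the wild type. Slc48a1, a haem transporter, was 46.9 FPKM in the rescue and 49.0 FPKM in the wild type. Lrp1, a receptor for haem bound to haemopexin, was 47.6 FPKM in the rescue and 43.6 FPKM in the wild type, and Blvra (biliverdin reductase) 9.59 FPKM in the rescue and 10.1 FPKM in the wild type.

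Cytoglobin and neuroglobin, globins that brain cells make, had lower levels in both mutant groups than in the wild type, with 3 of these 4 differences called. Of all tested models 0.478% were called lower in rescue against wild type and 0.858% in knockdown against wild type. Cygb (cytoglobin) was 14.5 FPKM in the rescue against 18.7 FPKM in the wild type, and 15.0 FPKM in the knockdown against 18.8 FPKM in the wild type, and was called lower in both comparisons (in the authors' deposited table, q = 0.0098 for the rescue and q = 0.0343 for the knockdown). Ngb (neuroglobin) was 1.34 FPKM in the rescue against 1.71 FPKM in the wild type and was not called. It was 1.09 FPKM in the knockdown against 1.7 FPKM in the wild type, and was called lower (q = 0.09 in the authors' deposited table). Between rescue and knockdown neither was called, at log2 folds of -0.03 and 0.30. The theta-globin model Hbq1a,Hbq1b lay at 0.43 FPKM in the rescue, 0.38 to 0.39 FPKM in the knockdown and 0.38 to 0.39 FPKM in the wild type. Hba-x, Hbb-bh1 and Hbb-bh2, other genes of the globin clusters, were listed at 0 in all 3 groups, and Hbb-y was 0.05 FPKM in the rescue and 0.09 FPKM in the knockdown and the wild type.

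Transcripts of other blood cells gave a mixed picture. Of the neutrophil list, all 7 tested models had log2 folds above 0 in rescue against wild type, 5 of 7 in rescue against knockdown and 5 of 6 in knockdown against wild type. None was called by Cuffdiff, and 3, 2 and 1 of them were higher at an unadjusted p under 0.05, where 1.82%, 1.18% and 4.75% of all tested models were. S100a8 and S100a9, calcium-binding proteins of neutrophils, were 2.45 and 2.46 FPKM in the rescue against 0.84 and 1.23 FPKM in the wild type (q = 0.202 each in the authors' deposited table). The summed neutrophil level was 8.23 to 8.86 FPKM in the rescue, 6.29 to 6.44 FPKM in the knockdown and 4.73 to 5.18 FPKM in the wild type, which is the same order of groups as for haemoglobin. Its part in the haemoglobin values was not tested.

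Platelet models gave 0 calls of 9 in both comparisons of the rescue group and 0 of 8 in the other, with 0, 0 and 1 at an unadjusted p under 0.05. Of all tested models 4.32%, 4.19% and 7.91% passed that p (rescue against wild type, rescue against knockdown, knockdown against wild type). Pf4 (platelet factor 4) was 1.72 FPKM in the rescue against 1.16 FPKM in the wild type, and 1.84 FPKM in the knockdown against 1.16 FPKM in the wild type, and was not called. In the lymphocyte list the 1 called model was Cd4, a T cell coreceptor that microglia and macrophages can also express. It was lower in both mutant groups than in the wild type, with log2 folds of -1.10 in the rescue and -0.95 in the knockdown. Cd4 was 1 of 3 tested models of the list in each of these comparisons, all with a mean below 1 FPKM. The shares of all tested models called lower there were 0.478% for the rescue and 0.858% for the knockdown. The defining lymphocyte genes Cd3e and Cd79a lay at 0.10 FPKM or below in every group. Of 2 tested blood monocyte models 0 were called in any comparison by Cuffdiff, and 0 had an unadjusted p under 0.05.

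Genes of the vessel wall followed another pattern of groups. Brain endothelial genes had a median log2 fold of 0.12 in rescue against wild type, -0.05 in rescue against knockdown and 0.16 in knockdown against wild type. Their summed level was 260 FPKM in the rescue of both tables, 281 to 282 FPKM in the knockdown and 247 to 250 FPKM in the wild type. Cldn5, a tight junction protein of brain vessels, was 25.1 FPKM in the rescue and 23.1 FPKM in the wild type of 1 table, and 26.6 FPKM in the knockdown and 22.8 FPKM in the wild type of another. Of 23 tested endothelial models 1 was called higher in knockdown against wild type, Ly6a (0.38), where 1.66% of all tested models were. In rescue against knockdown 2 of 23 were called lower, the glucose transporter Slc2a1 (-0.29) and the lipid transporter Mfsd2a (-0.57). The share of all tested models called lower there was 0.559%. In rescue against wild type 0 of 22 endothelial models were called. Pericyte and smooth muscle genes summed to 77.9 to 78.7 FPKM in the rescue and 79.9 to 82.5 FPKM in the knockdown. In the wild type they summed to 68.2 to 70.3 FPKM. Vtn (vitronectin) was the 1 called, of 12 tested models in knockdown against wild type (0.29), where 1.66% of all were called higher. Both lists and haemoglobin were lowest in the wild type, but between rescue and knockdown the sums of both lists were lower in the rescue, while haemoglobin was higher in the rescue. Meningeal and fibroblast genes summed to 130 to 134 FPKM in the rescue, 150 to 151 FPKM in the knockdown and 115 to 118 FPKM in the wild type, with 6 of 15 models called higher in knockdown against wild type, where 1.66% of all tested models were, and 0 called in the other comparisons by Cuffdiff. At an unadjusted p under 0.05 those comparisons had 5 higher in rescue against wild type, where 1.82% of all tested models were higher, and 5 lower in rescue against knockdown, where 4.19% passed in either direction.

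**Figure D5:**
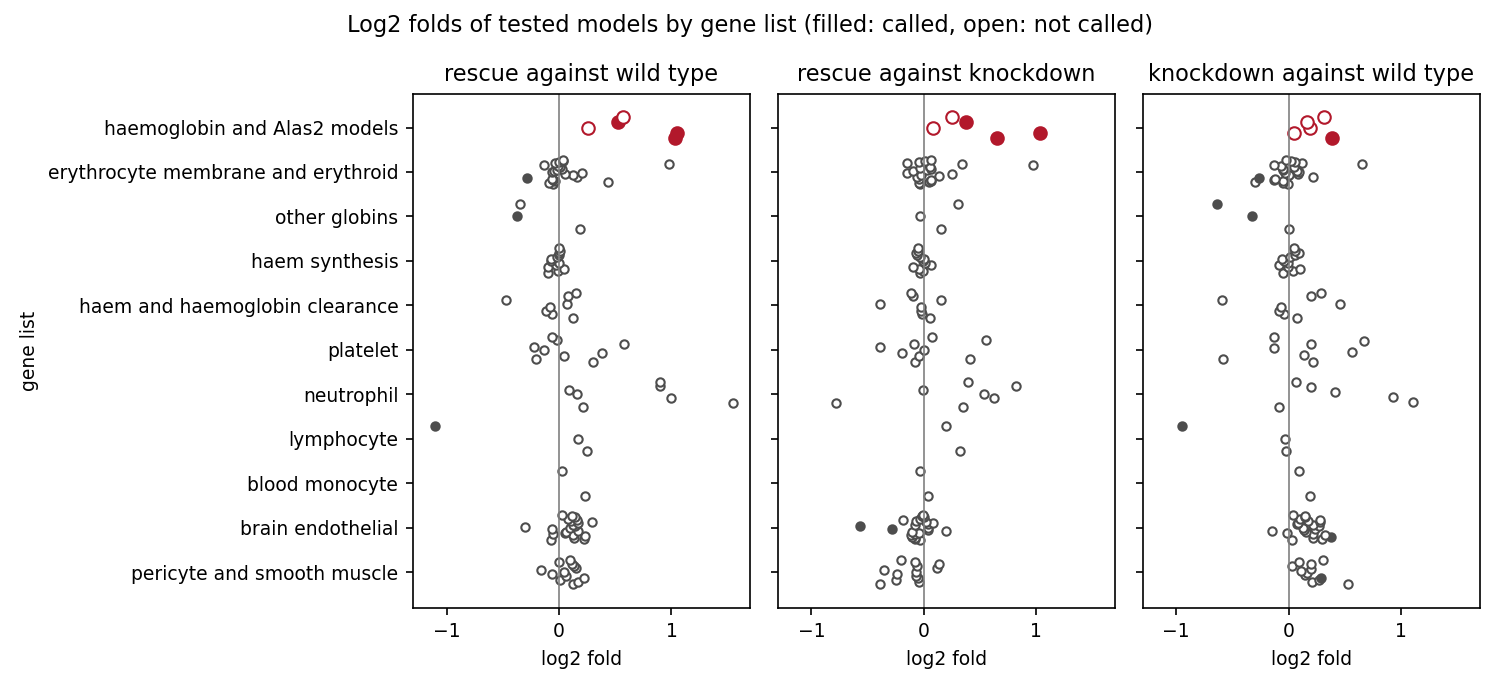
Log2 folds of the tested models of each gene list in the 3 comparisons (first-named group over second), with filled points for called models, open points for the others, and the haemoglobin and Alas2 models on the top line in red. The haem synthesis points lie within -0.10 to 0.10, while the red points reach 1.05 in rescue against wild type.

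Other tissue markers differed between the same libraries. Olfactory bulb markers summed to 106 FPKM in the rescue of both tables, 171 to 173 FPKM in the knockdown and 69.5 to 69.7 FPKM in the wild type, and RNAs without a poly(A) tail to 595 to 600 FPKM in the rescue, 1195 to 1333 FPKM in the knockdown and 664 to 736 FPKM in the wild type. Both were highest in the knockdown, unlike haemoglobin. The defining choroid plexus genes Ttr and Folr1 lay at 0.14 FPKM or below in every group, while Aqp1, a water channel, was 1.52 to 1.54 FPKM in the rescue, 2.22 to 2.24 FPKM in the knockdown and 0.825 to 0.839 FPKM in the wild type and was called in all 3 comparisons. Gfap, of the astrocyte list, was 41.9 to 42.4 FPKM in the rescue, 54.0 to 54.1 FPKM in the knockdown and 34.6 FPKM in the wild type, also called in all 3. Opalin was the 1 called oligodendrocyte gene, of 12 tested models, at 4.73 FPKM in the knockdown and 6.57 FPKM in the wild type. Choroid plexus calls were 1 of 4, 1 of 5 and 1 of 4 tested models (rescue against wild type, rescue against knockdown, knockdown against wild type). Astrocyte calls, Gfap among them, were 1 of 12, 2 of 12 and 2 of 11 in the same order. The shares of all tested models called in either direction were 0.841%, 0.689% and 2.52%. Pituitary Gh (growth hormone) was 1.93 to 1.98 FPKM in the rescue, 0.86 to 0.87 FPKM in the knockdown and 0.01 FPKM in the wild type, in the same order as haemoglobin. It was the 1 of 3 tested pituitary models called in rescue against knockdown (q = 0.0219 in the authors' deposited table), where 0.13% of all were called higher. Against the wild type 0 of 3 were called in either mutant group, with highest log2 folds of 7.12 for the rescue and 5.90 for the knockdown. Prl (prolactin) was 0.13 FPKM in the rescue, 0.24 FPKM in the knockdown and was listed at 0 in the wild type. In the list of oxygen and hypoxia response genes 0 of 19 models were called in rescue against wild type by Cuffdiff, with 1 at an unadjusted p under 0.05, where 4.32% of all tested models passed. In rescue against knockdown 2 of 18 were called, Slc2a1 and Hif3a (-0.56), both lower, where 0.559% of all tested models were. In knockdown against wild type Pgk1, a glycolytic enzyme, was the 1 of 18 called, at 55.0 FPKM in the knockdown and 37.5 FPKM in the wild type, where 1.66% of all tested models were called higher. The Pgk1 model of another table gave 19.0 FPKM in the wild type, so its level depends on the model. Whether any of these differences has a part in the haemoglobin values was not tested.

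The models with folds most like those of the haemoglobins were found by the Euclidean distance of their 3 log2 folds to the haemoglobin medians, which were 0.78 in rescue against wild type, 0.51 in rescue against knockdown and 0.17 in knockdown against wild type. Among 11662 single-symbol models with a mean of at least 1 FPKM in all 3 tables, the 8 nearest were Mmp14, Rxfp1, S100a9, Cldn20, Nos1, Adamts2, Cyp26b1 and Fgfbp1. Their distances ran from 0.25 for Mmp14, a membrane metalloproteinase, to 0.39 for Fgfbp1, a carrier of fibroblast growth factors. Adamts2, a procollagen protease, was 4.12 FPKM in the rescue and 2.04 FPKM in the wild type. S100a9, of the neutrophil list, was the third nearest. Since the likeness rests on 3 groups and comparisons that share them, it is a description.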

How the data were processed

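Polyadenylated RNA from frontal cortex of 12 mice was sequenced, per the labels' protocols. A Galaxy server was used for the reads, per the series' design text. The same text gives Cuffdiff as the test, and the submitters' processing notes list its version as 2.2.1.3, besides Cufflinks 2.2.1.0, TopHat2 2.1.0 besides TopHat, FastQC 0.65, and GRCm38 as well as mm10 as build. From Cuffdiff, 3 tables were deposited by the authors, which per the file headers give an FPKM value per group, a log2 fold, a test statistic (a score), a p-value and a q-value. How reads that fit several copies were shared out is not given in the sources used here. The tables call the groups WT, NR1 and NR1Cre, which were matched to WT, GluN1 and GluN1Cre through the labels. Replicates were pooled to 1 value per group, so no replicate spread or depth could be had.

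Log2 folds were recomputed from the deposited FPKM with no pseudocount, the first-named group of each comparison over the second, since deposited fold cells without a number occurred, and 27 symbols of 1 table stood as dates. Recomputing Benjamini-Hochberg values moved no deposited q-value by more than 5.14e-07. Called means p under 0.05 and q under 0.10, the threshold in the series' design text. Table loci count from 0 at the start and are given from 1. The rule for named genes took all members, Grin1, the 4 called genes of smallest q in each of 19 gene lists, the 4 of highest mean FPKM in the erythroid, globin, haem synthesis and clearance lists, and the 8 models of nearest fold pattern. Not all of these are printed, and other genes were named after their values were seen. Members and lists were chosen with earlier results of these data known. Promoters come from RefSeq (GRCm38.p6) and coding bases from GENCODE M21. All 5 member loci had a promoter there. The steps were tested on simulated data. Python 3.11.15, pandas 2.3.3 and SciPy 1.17.1 were used.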

Additional observations from a re-analysis of the deposited data

How the results depend on the processing

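Across 30 results, 102 values were recomputed under other settings, and 93 were counted as kept. A fold was kept with its direction and its side of the threshold. A number of calls was kept when it stayed within 1.5 times the main one. A value without a test was kept when it moved by less than 0.1 on the log2 scale. No value changed sign. Settings that added 1 FPKM, centred the folds or used the deposited fold reused each model's deposited q. There a fold could be lost only by a change of sign. A model not called at q under 0.10 could not be lost at q under 0.05. All 5 members passed the filter of a mean of at least 1 FPKM. Part of the 93 was thus kept by construction, so that number is no measure of robustness. At q under 0.05, 0 of the 5 haemoglobin and Alas2 models were called in knockdown against wild type, where 1 was called at an unadjusted p under 0.05 by Cuffdiff: the alpha model 1 kept its log2 fold of 0.38. With p taken from the deposited test statistic, chosen after seeing the data, the calls among these models were 1 in rescue against wild type, 0 in rescue against knockdown and 0 in knockdown against wild type. By the deposited p and q they were 3, 3 and 1 in that order. With no q threshold 4, 3 and 1 had a deposited p under 0.05. Over all genes the p from the test statistic called 18, 15 and 41 models in the same order, against 155, 127 and 464. The statistic's smaller size beside the normal deviate of p lowers these counts by construction. With the highest model of each chain alone, the log2 difference of the alpha to beta ratio between rescue and knockdown was 0.28 in place of 0.40, since the alpha model 2 with its larger fold is then left out. No paired analysis was possible because the tables hold 1 value per group, and for the same reason no animal could be left out. How far a single animal sets the haemoglobin level was not tested.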
